A study of Mus musculus with 6 samples.

Results

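The 10 genes examined were the T helper 2 (Th2) cytokine genes Il4, Il5, Il13, Il10, Il3 and Csf2, the Th2 lineage factors Gata3 and Maf, and the Th1 counterparts Ifng and Tbx21, chosen as the rows of the expression table that carry these gene symbols. All 10 were among the 41079 genes listed, and 7 of them were among the 12227 genes with a mean abundance of at least 1 TPM, a measure of abundance per gene length in which every library has the same total, which were the genes tested. RNA was sequenced from D10 (D10.G4.1), a cloned mouse helper T cell line that recognises a conalbumin peptide on I-A k. Non-acclimated (non-AC) cells had been kept at 37°C for 24 h (3 libraries) and cold-acclimated (AC) cells at 26°C for 24 h (3 libraries), with replicate numbers 1 to 3 in each condition. The labels give this 1 cloned line for all 6 libraries, with no genotype difference and no stimulus named between the conditions. The labels state that RNA came from an old and a new extraction batch without saying which library belongs to which. The labels and the study's methods name different culture media, RPMI and DMEM, and only the methods name IL-2 in it. The comparison asks how the helper cytokine programme of these cells stood at each temperature and in each replicate.

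Th2 cells are the helper T cells that direct immunity to helminths and drive allergic inflammation. Signals through the IL-4 receptor and STAT6 raise GATA3, which opens the cytokine locus shared by Il4, Il13 and Il5, while c-Maf acts on Il4 and Il10. The Th1 factor T-bet, encoded by Tbx21, drives Ifng and opposes GATA3. D10 has long been used as a model Th2 clone.

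The promoters of Il4, Il13, Il5 and Il3 are shown because these genes lie in 1 interval of chromosome 11 and behaved differently from each other in the libraries described below. They are from a RefSeq table of GRCm38.p6, placed on GRCm39 by exact match, and each runs 5′ to 3′ from 250 bases before to 50 bases after the listed start of the gene. Capitals mark matches on either strand to a GATA site (AGATAA or alternatively TGATAA, and likewise AGATAG or alternatively TGATAG), the NFAT core (TGGAAA) or a TATA box (TATAAA). Il4 and Il13 are on the minus strand at chr11:53509443-53509742 and chr11:53525480-53525779, Il5 is on the plus strand at chr11:53611371-53611670, and Il3 is on the minus strand at chr11:54158056-54158355.
Il4: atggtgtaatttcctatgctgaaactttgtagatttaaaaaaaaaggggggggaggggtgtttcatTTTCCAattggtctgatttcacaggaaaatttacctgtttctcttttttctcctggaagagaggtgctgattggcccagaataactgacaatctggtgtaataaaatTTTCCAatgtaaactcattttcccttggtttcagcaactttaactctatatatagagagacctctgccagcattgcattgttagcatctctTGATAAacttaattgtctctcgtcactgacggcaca
Il13: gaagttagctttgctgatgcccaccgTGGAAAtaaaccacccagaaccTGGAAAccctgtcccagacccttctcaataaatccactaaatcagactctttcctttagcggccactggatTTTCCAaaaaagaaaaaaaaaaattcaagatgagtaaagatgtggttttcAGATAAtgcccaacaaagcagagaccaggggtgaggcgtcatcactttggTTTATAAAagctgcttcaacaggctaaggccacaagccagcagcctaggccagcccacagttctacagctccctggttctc
Il5: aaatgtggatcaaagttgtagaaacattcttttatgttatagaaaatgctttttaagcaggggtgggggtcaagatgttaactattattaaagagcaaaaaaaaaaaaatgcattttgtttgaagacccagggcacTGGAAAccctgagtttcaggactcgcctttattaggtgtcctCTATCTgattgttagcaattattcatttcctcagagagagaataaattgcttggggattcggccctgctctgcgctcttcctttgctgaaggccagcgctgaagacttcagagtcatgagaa
Il3: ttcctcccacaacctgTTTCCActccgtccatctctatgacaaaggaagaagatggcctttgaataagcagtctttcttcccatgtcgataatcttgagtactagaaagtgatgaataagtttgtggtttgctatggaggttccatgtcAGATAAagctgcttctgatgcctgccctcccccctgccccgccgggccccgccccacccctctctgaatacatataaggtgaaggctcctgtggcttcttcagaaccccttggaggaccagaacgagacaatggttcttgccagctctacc
Il13 held 3 NFAT cores, 1 GATA site and 2 overlapping matches to the TATA box, and Il4 held 2 NFAT cores and 1 GATA site. Il5 and Il3 each held 1 NFAT core and 1 GATA site. A GATA site was found in 6 and an NFAT core in 5 of the 7 members with a promoter at the listed start, against 29.8% and 21.4% of all 32851 promoters of the same length. The AP-1 motif TGANTCA was found in 0 of these 7 and in 7.81% of all promoters. A TATA box was found in 2 of the 7, Il13 and Ifng, and in 13.6% of all promoters. These matches are a description of letters and not of bound sites.

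The libraries held between 16899628 and 31290854 reads, recovered from the whole-read steps of the TPM values. The labels call the cells CD4+, yet Cd4 stood at 1.09, 0.0351 and 310 TPM in non-AC replicates 1, 2 and 3 and at 1.30, 0.352 and 328 TPM in AC replicates 1, 2 and 3. Cd4 was thus close to 0 in the 4 libraries of replicates 1 and 2 and high in both libraries of replicate 3, and it differed between replicate numbers (limma F test, adjusted p = 4.4e-04). Of the 11 T cell markers 9 were tested and 5 differed between replicate numbers, namely Cd4, Trac, Cd3d, Cd28 and Lck. The share of all tested genes that differed was 3.61% by the limma F test and 5.89% by voom. The summed level of all 11 was 2389 to 4285 TPM in non-AC and 2841 to 3994 TPM in AC cells. Trac, the constant gene of the T cell receptor alpha chain, stood at 207 and 184 TPM in replicate 1, at 15.0 and 12.8 TPM in replicate 2 and at 185 and 129 TPM in replicate 3 (non-AC and AC). Cd3e was high in all 6 libraries (476 to 874 TPM), whereas Thy1 was listed at 0 throughout. Whether the cells of the 3 replicate numbers were of the same subline was not tested, and neither was the part of these marker differences in the results below, so results are also given within each replicate number and without replicate 3.

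Between the temperatures, 0 of the 7 tested members were called, where a call needed both an adjusted p under 0.05 and a log2 difference of 1 or more in either direction (limma on log2(TPM + 1)), while 18.6% of all tested genes were. The upregulated share of all genes was 2.63% and the downregulated share 16.0%, and 6.56% and 8.80% after scaling by the median of ratios, a scaling between libraries that moved the median log2 difference of all genes from -0.34 to 0.02. By limma, 0 members had an unadjusted p under 0.05, against 4612 of the 12227 tested genes. The same count of 0 was found with voom on the recovered reads (4403 of all tested genes) and with a replicate term (5912). With a replicate term and the median of ratios scaling together it was 1 (Il10), against 5957 of all tested genes. Values of 0 of the 7 members separated the 2 conditions without overlap, against 41.1% of all tested genes. Between replicate numbers 3 of the 7 members (Il3, Il13 and Il5) differed, against 3.61% of all tested genes (limma F test) and 5.89% by voom, which called the same 3 members. This F test had temperature in the model and no size threshold, so its counts cannot be set directly against those between temperatures. Without the filter on low values, 0 of all genes were called by this limma F test, these 3 included, and 3189 genes and 3 members had an unadjusted p under 0.05. On the log2(TPM + 1) scale the replicate number carried a median of 74.4% of a member's sum of squares and temperature 3.91%, where the medians over all tested genes were 31.5% and 44.7%. In 7 of 7 members the replicate number carried the larger share, as it did in 45.2% of all tested genes. The replicate number has more degrees of freedom (2) than temperature, so its share tends to be the larger even where neither has an effect. The replicates were sampled as separate preparations, and the temperature p-values without a replicate term are set against the spread between those preparations. Those with a replicate term, and those between replicate numbers, are set against the spread left after temperature and replicate number. A change in the number of cells that express a gene cannot be told apart from a change of RNA per cell. Fold changes on this scale understate the change of low genes.

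**Figure D1:**
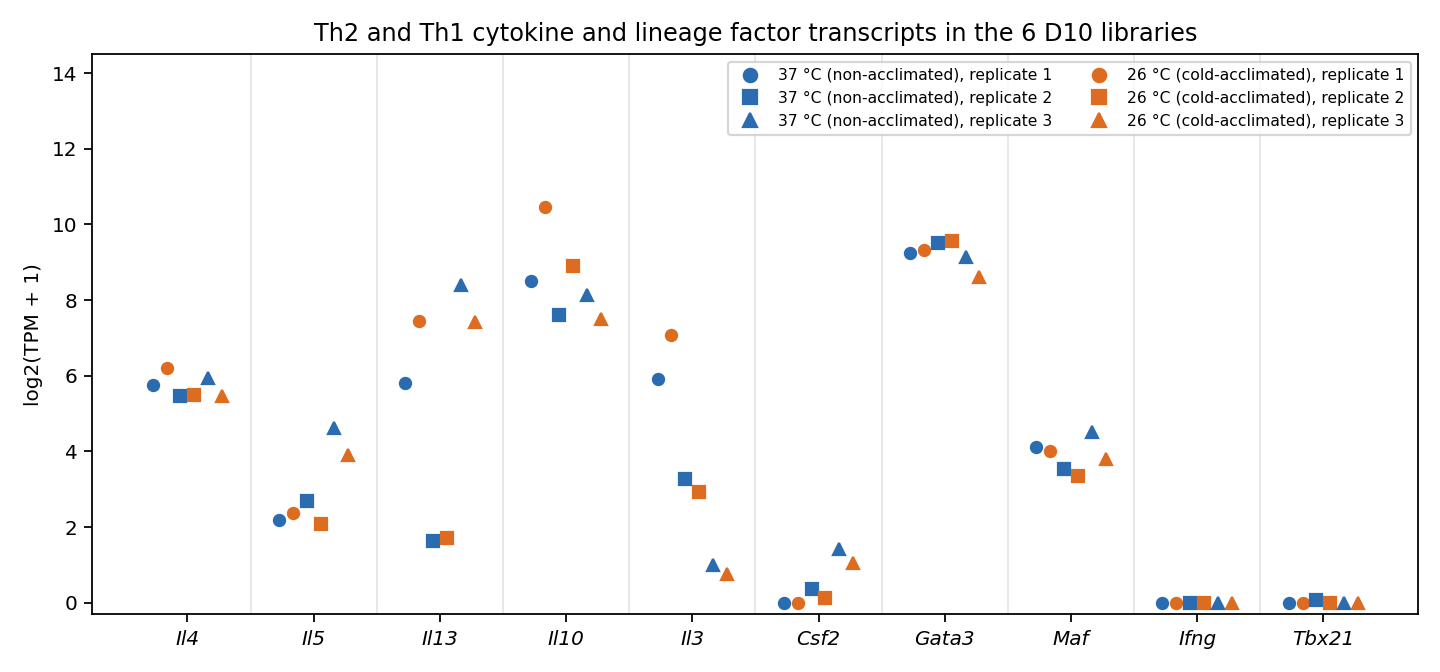
Level of each member in the 6 libraries as log2(TPM + 1), with blue for 37°C, orange for 26°C and the marker shape for the replicate number. Il13 and Il3 spread with the replicate number far more than with temperature, Il4, Gata3 and Maf stay in a narrow range, and Ifng and Tbx21 lie at or near 0.

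Il4 (ENSMUSG00000000869, chr11:53503287-53509492, minus strand) encodes the cytokine that defines the lineage. Its level was 53.2, 43.5 and 60.6 TPM in non-AC replicates 1, 2 and 3 and 72.2, 44.1 and 43.2 TPM in AC replicates 1, 2 and 3. The conditions overlapped, and the highest library was 1.67-fold above the lowest, the narrowest range of the 7 members. The means were 52.4 ± 8.54 TPM in non-AC and 53.2 ± 16.5 TPM in AC cells (SD, n = 3 each), a log2 difference of -0.01 (SE 0.28, 95% interval -0.66 to 0.64, limma adjusted p = 0.98). After scaling by the median of ratios the difference was 0.38 (limma adjusted p = 0.38). Il4 did not pass the test between replicate numbers (limma adjusted p = 0.54).

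Il13 (ENSMUSG00000020383, chr11:53522150-53525529, minus strand) encodes the effector cytokine of mucus production and airway responses. In non-AC replicates 1, 2 and 3 it stood at 54.5, 2.12 and 338 TPM. In AC replicates 1, 2 and 3 it stood at 173, 2.30 and 171 TPM. Both libraries of replicate 2 were thus far below the other 4, with 21 and 25 recovered reads against 451 to 4898. Averaged over the temperatures, the level was 114, 2.21 and 254 TPM in replicates 1, 2 and 3, and replicate 3 exceeded replicate 2 by 6.23 in log2(TPM + 1) with an SE of 0.56 (limma F test between replicate numbers, adjusted p = 0.0069, and 0.016 with voom). Between temperatures the means of 131 ± 180 and 115 ± 97.9 TPM (SD, n = 3 each, non-AC and AC) gave a log2 difference of 0.25 with a 95% interval of -4.41 to 4.91 (limma adjusted p = 0.94). That interval spans changes of many fold in either direction. With a replicate term it narrowed to -0.84 to 1.34 (limma adjusted p = 0.69).

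Il5 (ENSMUSG00000036117, chr11:53611621-53615930, plus strand) encodes the growth factor of eosinophils. It stood at 3.52, 5.47 and 23.4 TPM in non-AC replicates 1, 2 and 3. In AC replicates 1, 2 and 3 it stood at 4.22, 3.19 and 13.9 TPM. Both replicate 3 libraries lay above the other 4, in each condition. Replicate 3 exceeded replicate 1 by 1.97 and replicate 2 by 1.87 in log2(TPM + 1), each with an SE of 0.34 (limma F test, adjusted p = 0.042, and 0.047 with voom). This call was lost under the median of ratios scaling (limma adjusted p = 0.053). It was also lost in 4 of the 6 fits that left out 1 library, those without replicate 1 or replicate 2 of either condition. It was kept only in the fits without a replicate 3 library, which called far more genes than the others and are a weak check. Temperature gave a log2 difference of -0.38 (SE 0.71, 95% interval -2.04 to 1.29, limma adjusted p = 0.74) between means of 10.8 ± 10.9 and 7.11 ± 5.92 TPM (SD, n = 3 each). With a replicate term the interval was -1.04 to 0.29 (limma adjusted p = 0.32).

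Il3 (ENSMUSG00000018914, chr11:54155911-54158105, minus strand) encodes a growth factor of mast cells and basophils. It stood at 58.8, 8.60 and 0.979 TPM in non-AC replicates 1, 2 and 3 and at 135, 6.54 and 0.692 TPM in AC replicates 1, 2 and 3. Replicate 1 was highest and replicate 3 lowest at both temperatures, a range of 195-fold between the extreme libraries, the widest of the 7 members. The lowest level rested on 6 recovered reads and the highest on 990. The difference from replicate 1 in log2(TPM + 1) was -3.40 in replicate 2 and -5.62 in replicate 3 (SE 0.42, limma F test, adjusted p = 0.0048, and 0.0062 with voom). The temperature difference was 0.20 (SE 1.71, 95% interval -3.79 to 4.19, limma adjusted p = 0.95). With a replicate term the interval was -0.62 to 1.03 (limma adjusted p = 0.67). Il3 and Il13 kept their calls between replicate numbers in all 6 fits without 1 library. Each such fit leaves a replicate number with a single library, and those without a replicate 3 library called far more genes than the others. They are therefore a weak check. Replicate 3, the highest for Il5, was the lowest for Il3.

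Csf2 (ENSMUSG00000018916, chr11:54138096-54140725, minus strand) encodes granulocyte-macrophage colony-stimulating factor and lies near Il3. It was at 0, 0.285 and 1.68 TPM in non-AC replicates 1, 2 and 3 and at 0, 0.0866 and 1.07 TPM in AC replicates 1, 2 and 3. Its mean of 0.521 TPM kept it out of the test, and the values rest on at most 26 recovered reads. A count of 0 allowed a level of up to 0.341 TPM (non-AC) and 0.270 TPM (AC) in replicate 1, for counting error only. Csf2 was highest in replicate 3, where Il3 was lowest.

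Il10 (ENSMUSG00000016529, chr1:130947459-130952707, plus strand) encodes the anti-inflammatory cytokine made by Th2 and regulatory cells, and it had the largest mean temperature difference of the members. It stood at 365, 195 and 279 TPM in non-AC replicates 1, 2 and 3 and at 1418, 473 and 181 TPM in AC replicates 1, 2 and 3. It was 3.89-fold and 2.42-fold higher at 26°C in replicates 1 and 2 and 1.54-fold higher at 37°C in replicate 3, so the conditions overlapped. Means of 280 ± 84.7 and 691 ± 646 TPM (SD, n = 3 each) gave a log2 difference of 0.87 (SE 0.68, 95% interval -0.71 to 2.45, limma adjusted p = 0.39). Without replicate 3 the difference was 1.61 and the 2 conditions no longer overlapped, and it did not pass the threshold (limma adjusted p = 0.078). Without AC replicate 1 it was 0.11, and without AC replicate 3 it was 1.59 (limma adjusted p = 0.055). With a replicate term the adjusted p was 0.17 by limma, and over all alternatives it ranged from 0.055 to 0.90.

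Gata3 (ENSMUSG00000015619, chr2:9861889-9894845, minus strand) encodes the master transcription factor of the lineage and had the highest mean level of the members over the 6 libraries, although Il10 was higher in the mean of the AC libraries (691 against 592 TPM). It stood at 601, 726 and 564 TPM in non-AC replicates 1, 2 and 3 and at 638, 751 and 387 TPM in AC replicates 1, 2 and 3. The AC library of replicate 3 was the lowest and the 2 conditions overlapped, within a 1.94-fold range. Means of 630 ± 84.6 and 592 ± 186 TPM (SD, n = 3 each) gave a log2 difference of -0.14 (SE 0.30, 95% interval -0.83 to 0.56, limma adjusted p = 0.78). The direction turned to 0.26 after the median of ratios scaling. A pair of noncoding genes overlaps Gata3 on chromosome 2, Gata3os on the opposite strand and Gata3un on the same one, and the strand setting of the counting is not given in the sources used here, so reads shared with them make the Gata3 level uncertain. Gata3os stood at 15.9 TPM (non-AC) and 9.22 TPM (AC, limma adjusted p = 0.10) and Gata3un at 33.5 and 55.9 TPM, without overlap (log2 difference 0.72, limma adjusted p = 0.068). Gata3un passed both thresholds after the median of ratios scaling (1.11, limma adjusted p = 0.019) and with voom (1.13, adjusted p = 0.035).

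Maf (ENSMUSG00000055435, chr8:116429992-116433633, minus strand) encodes the activator c-Maf. It stood at 16.4, 10.5 and 21.8 TPM in non-AC replicates 1, 2 and 3 and at 15.2, 9.27 and 13.0 TPM in AC replicates 1, 2 and 3. It was lowest in replicate 2 at both temperatures. The temperature difference was -0.33 (SE 0.33, 95% interval -1.10 to 0.45, limma adjusted p = 0.52), close to the median of all tested genes (-0.34), and it was 0.05 after the median of ratios scaling.

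Ifng (chr10:118276951-118281799) encodes the Th1 cytokine interferon gamma and was listed at 0 in all 6 libraries. Tbx21 (chr11:96988833-97006157) had 1 recovered read in non-AC replicate 2 (0.0477 TPM) and none in the other 5, where a count of 0 allowed up to 0.171 TPM. Both Th1 genes were thus at 0 or at 1 read in every library, at both temperatures. Levels per length ran from Gata3 (mean 611 TPM) and Il10 (485 TPM) through Il13 (123 TPM), Il4 (52.8 TPM) and Il3 (35.1 TPM) to Maf (14.4 TPM), Il5 (8.95 TPM) and Csf2. This order is over all 6 libraries. In replicate 1 Il10 (891 TPM) was above Gata3 (619 TPM), and the places of Il13 and Il3, which each varied more than 100-fold between libraries, also change with the replicate.

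**Figure D2:**
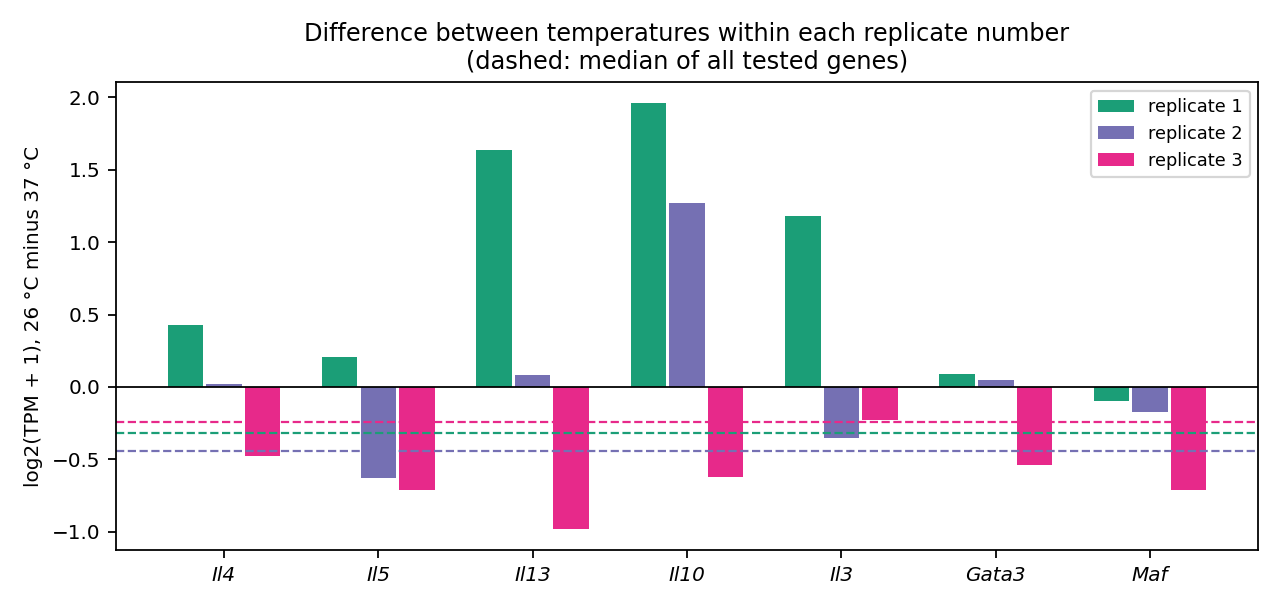
Difference between 26°C and 37°C in log2(TPM + 1) within each replicate number for the 7 tested members, with bars coloured by replicate and dashed lines at the median of all tested genes (-0.32, -0.44 and -0.24). In replicate 3 all 7 members were lower at 26°C, in replicate 1 only Maf was.

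The temperature difference of the members is given here within each replicate number. In replicate 1 it was 1.64 for Il13, 1.96 for Il10 and 1.18 for Il3 in log2(TPM + 1), and the median of the 7 was 0.43, where the median of all tested genes was -0.32. In replicate 2 the median of the members was 0.02 and that of all genes -0.44, with Il10 (1.27) the only member over 1. In replicate 3 the median of the members was -0.62 and that of all genes -0.24, and Il13 had the lowest value (-0.98). Each of these values compares 1 library with 1 library, and the difference between replicate numbers in the temperature effect was not tested. With replicate 3 left out, the log2 differences between temperatures were 0.23 for Il4, -0.21 for Il5, 0.86 for Il13, 0.42 for Il3, 0.07 for Gata3 and -0.13 for Maf. With Il10 (above), again 0 of the 7 passed by limma, against 3741 of the 12227 tested genes. Only 1 member (Il10) had an unadjusted p under 0.05 in that fit, against 5687 of all tested genes. The members differed also in their levels across libraries, as a description over 6 libraries that share pairs by replicate number. The Pearson correlation of log2(TPM + 1) was 0.85 between Il13 and Maf, 0.77 between Il10 and Il3, 0.75 between Il4 and Il10, -0.76 between Il5 and Il3, and -0.05 between Il13 and Il3.

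**Figure D3:**
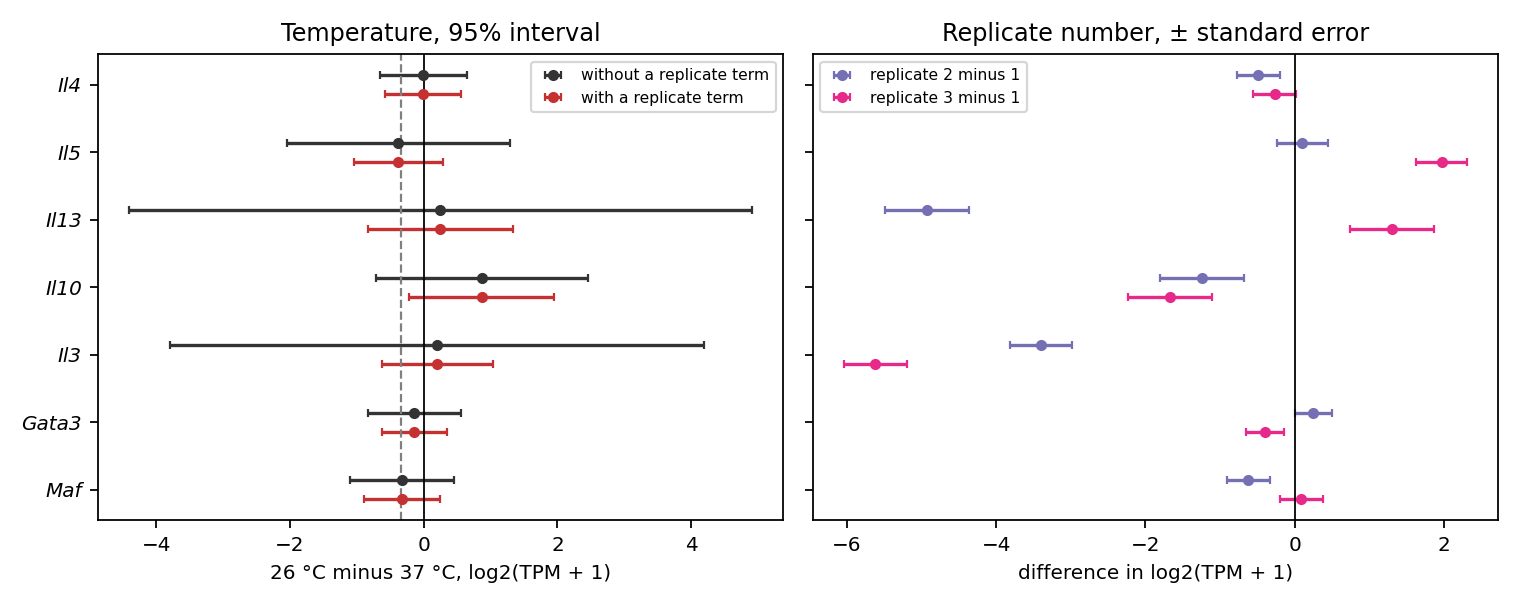
Left, the log2 difference between 26°C and 37°C of the 7 tested members with 95% intervals, without (black) and with (red) a replicate term, and the median of all genes dashed. Right, differences of replicates 2 and 3 from replicate 1 with their standard errors, which reach -4.93 for Il13 (replicate 2 minus 1) and -5.62 for Il3 (replicate 3 minus 1) and stay under 1 in size for Il4, Gata3 and Maf.

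Il4, Il13, Il5, Csf2 and Il3 lie in chromosome 11 from Kif3a to Acsl6 (GRCm39 chr11:53456531-54255582). This interval held 22 listed genes, 9 of them tested, and 1 was called higher and 1 lower at 26°C, where 2.63% of all tested genes were higher and 16.0% lower. With so few genes these counts do not set the interval apart. The lower one was Rad50, a DNA repair gene between Il13 and Il5 whose locus holds control elements of the Th2 cytokines. It stood at 99.0, 89.7 and 75.1 TPM in non-AC and 12.7, 12.6 and 24.3 TPM in AC replicates 1, 2 and 3, with no overlap (log2 difference -2.40, limma adjusted p = 0.007, kept in all 6 fits without 1 library). Il13 and Il5, on either side of it, overlapped between the temperatures. Slc22a5, a carnitine transporter, was higher at 26°C (13.7 against 29.0 TPM, log2 difference 1.03, limma adjusted p = 0.023), a call lost in 5 of the 6 fits without 1 library. The interval's calls between replicate numbers were 3 in number, and all were cytokine genes (Il13, Il5 and Il3, the members already described), against 3.61% of all tested genes.

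**Figure D4:**
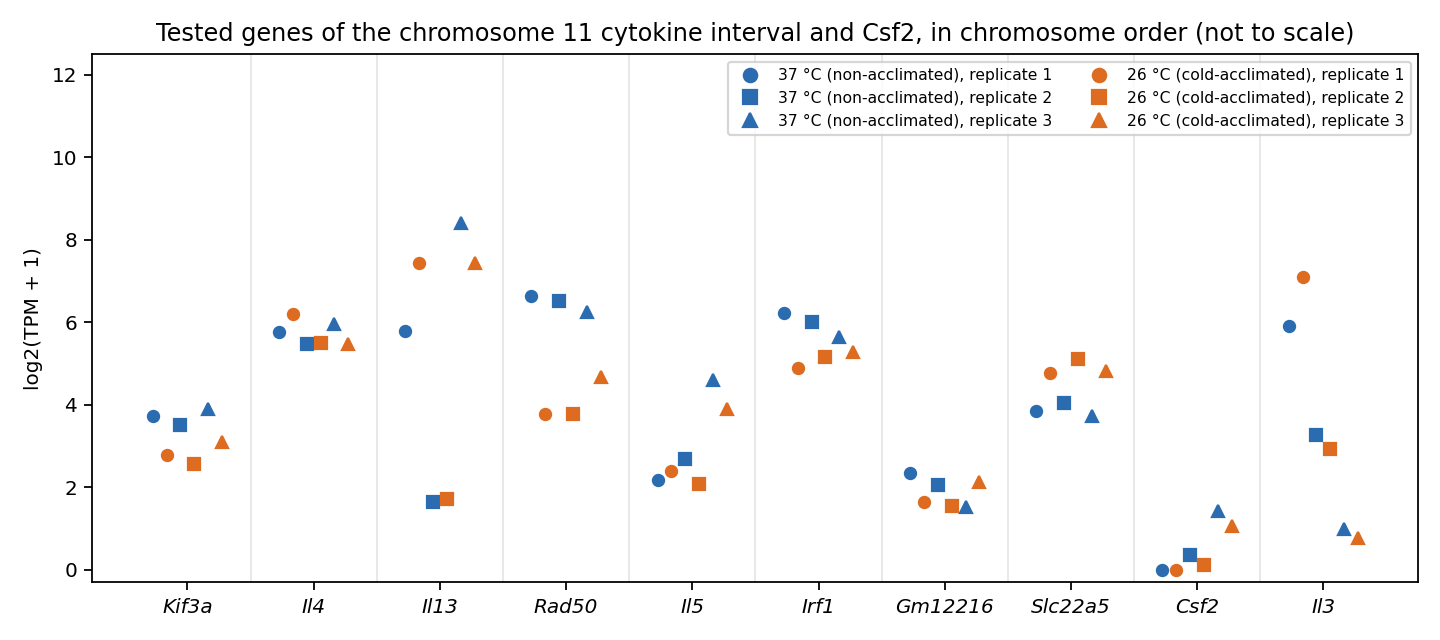
Level of the 9 tested genes of the interval, and of Csf2, in each library as log2(TPM + 1), in chromosome order and not to scale. Rad50 separates the temperatures, whereas Il13 is low in both libraries of replicate 2, Il5 is high in both of replicate 3, and Il3 is high in replicate 1 and low in replicate 3.

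The genes whose pattern was most like that of Il4 over the 6 libraries, among 9743 genes with a mean of at least 5 TPM, were Lif (r = 0.98), Gm52742 (0.98) and Pisd-ps1 (0.95). For Gata3 they were Irf2bp2 (r = 0.99), Skida1 (0.99) and Slc35e3 (0.98). These are the highest of many correlations over 6 libraries.

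Among the other genes of the pathway, 80 in 5 lists, 57 were tested, and 1 was called higher and 9 lower at 26°C. The shares of all tested genes were 2.63% and 16.0%, so the count in these lists was near that of genes in general. With a replicate term in the model 2 of the 57 were higher and 16 lower, against 458 and 2679 of all 12227 tested genes. In the list of other T helper cytokines and ligands, 12 of 20 were tested, and Ccl1 fell, from 10.6 to 0.957 TPM (limma adjusted p = 0.04), a call lost in all 6 fits without 1 library and under the median of ratios scaling. Among the Th2-associated receptors, 10 of 12 were tested. Il2ra, the IL-2 receptor alpha chain, fell from 1687 to 286 TPM (log2 difference -2.56, limma adjusted p = 0.0067, kept in all 6), and Ptgdr2, the prostaglandin D2 receptor of Th2 cells, rose from 1.11 to 5.87 TPM (1.69, limma adjusted p = 0.021, lost in 4 of 6). The receptor Il4ra, through which IL-4 acts, stood at 432 and 310 TPM and did not pass (limma adjusted p = 0.45).

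Of the 19 tested Th2 signalling and transcription factors, 4 fell, where 16.0% of all tested genes did. After the median of ratios scaling 3 of the 19 fell, against 8.80% of all tested genes. Stat5a was higher at 26°C without overlap (53.5 against 103 TPM, log2 difference 0.95, limma adjusted p = 0.036), under the size threshold, which it passed after the median of ratios scaling (1.35, limma adjusted p = 0.019). Stat6, the transducer of IL-4, fell from 97.3 to 34.5 TPM (log2 difference -1.55, limma adjusted p = 0.023), without overlap and in all 3 replicates. Stat5b (48.2 to 16.1 TPM), Ikzf1 (129 to 48.6 TPM) and Rbpj (49.2 to 23.5 TPM) fell with it. Leaving out 1 library lost the call of Stat6 and Rbpj in 5 of 6 fits, of Stat5b in 4 and of Ikzf1 in 2, and the median of ratios scaling lost that of Rbpj (adjusted p = 0.09 by limma). Of the GATA3 antagonists, 4 of 6 were tested and 0 passed by limma, while with a replicate term Bcl6 did (3.55 against 0.304 TPM, log2 difference -1.53, limma adjusted p = 0.046, against 0.091 without that term). Bcl6 stood at 6.9, 3.17 and 0.588 TPM in non-AC and 0.156, 0.393 and 0.363 TPM in AC replicates 1, 2 and 3. Its mean thus passed the filter through non-AC replicates 1 and 2. Without the replicate term it also failed after the median of ratios scaling (limma adjusted p = 0.12) and with voom (adjusted p = 0.15). Among the 12 tested other lineage factors and Th1 genes, those that fell included Stat4 (70.9 to 33.6 TPM) and Zbtb7b (30.9 to 7.01 TPM). Stat4 lost its call in 5 of 6 such fits and under the median of ratios scaling (adjusted p = 0.13 by limma), and Zbtb7b lost it in 0. The median log2 difference relative to all genes was 0.44 in the cytokine list, -0.33 in the receptor list, -0.04 in the signalling list, 0.24 in the antagonist list and -0.16 in the lineage list.

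Between replicate numbers, 7 of the 57 tested list genes differed by limma, named here after their values were seen, against 3.61% of all tested genes (5.89% by voom). They were Il6, Cd40lg, Tnfsf14 and Ccl1 of the cytokine list, Il1rl1 and Cd28 of the receptors, and Il18rap of the Th1 machinery. Voom did not call Ccl1 (adjusted p = 0.09) and called also Il4ra (adjusted p = 0.033) and Il17rb (adjusted p = 0.011). Il1rl1, the IL-33 receptor, stood at a mean of 6.29, 27.5 and 0.921 TPM in replicates 1, 2 and 3 (limma F test, adjusted p = 0.005), highest where Il13 was lowest. Cd40lg, the ligand by which helper T cells activate B cells, stood at 79.3, 10.2 and 92.8 TPM (limma F test, adjusted p = 0.0055), low in replicate 2 as Il13 and Trac were. Il6 stood at 101, 36.5 and 16.5 TPM (limma F test, adjusted p = 0.023), in the same order as Il3.

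**Figure D5:**
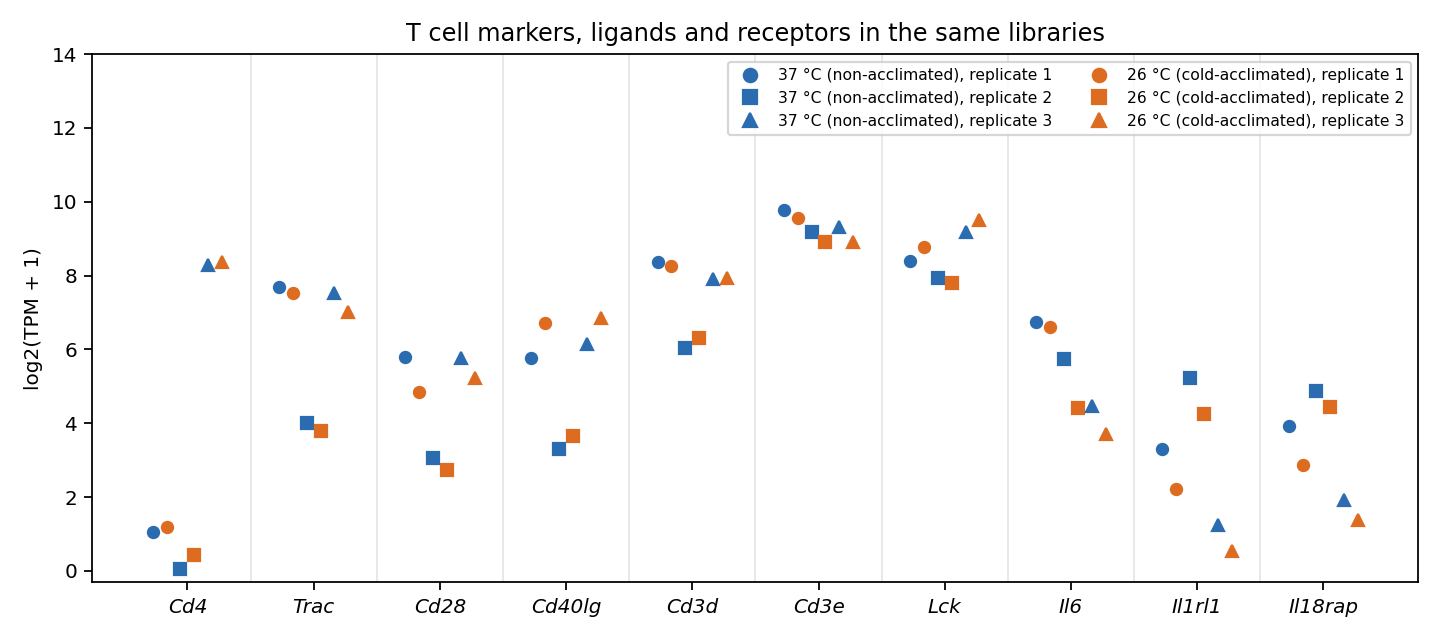
Level of T cell markers, ligands and receptors in each library as log2(TPM + 1), chosen after their values were seen, apart from Cd4 and Cd3e. Cd4 is high only in replicate 3, and Trac, Cd28, Cd40lg and Cd3d are lowest in replicate 2.

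Markers of other cell types were low. The summed level of the B cell list was 1.02 to 3.62 TPM over the 6 libraries, lower in each AC library than in each non-AC one, and that of the cytotoxic T and NK cell list was 0.099 to 0.751 TPM in non-AC and 0.188 to 0.398 TPM in AC cells. The macrophage and monocyte list summed to 2.46 to 15.9 and 2.69 to 21.2 TPM, highest in replicate 3 through Lyz2 (13.2 TPM there, 0.273 and 1.54 TPM in replicates 1 and 2), while Cd14 was listed at 0. The mast cell and basophil list summed to 9.16 to 28.2 and 11.9 to 28.0 TPM, mostly Fcer1a, with Kit and Ms4a2 listed at 0. Their part in the differences of Il5, Il13 and Il3 between replicate numbers was not tested.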

How the data were processed

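Poly(A)+ RNA was sequenced from 3 non-acclimated and 3 cold-acclimated D10 cultures with directional libraries. The authors deposited TPM values per gene on GRCm39, obtained with HISAT2 2.1.0 and featureCounts 1.6.3 after trimming with Trimmomatic 0.38 and quality checks with FastQC 0.11.7 (submitters' processing notes), and tested genes with DESeq2, which was not used here. The strand setting of the counting, the annotation release and each gene's length were not given in the sources used here. A TPM value is per gene length, with each library at the same total, so a change in a few abundant genes moves all others.

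Read numbers were recovered as the whole multiples of each gene's step, for 100% of the 21195 genes above 0 (tolerance 1e-06 reads). They gave 16899628 to 31290854 reads per library. Because TPM are not counts, limma 3.58.1 in R 4.3.3, with a mean-variance trend, was fitted to log2(TPM + 1) for those 12227 genes whose TPM averaged at least 1, with Benjamini-Hochberg adjustment over all of them. A limma F test with 2 degrees of freedom compared the replicate numbers, with temperature in the model. Alternatives were a pseudocount of 0.1, no filter, the median of ratios scaling, a replicate block, voom on recovered reads, and leaving out libraries or replicate numbers. Leaving out 1 library for the pathway and interval genes was added after seeing the data. The procedure was also run on simulated data. Those had the same added spread for every gene and, apart from a set of genes changed in replicate 3, no difference between preparations. They therefore do not show how the tests behave at the spread between preparations of the real libraries. Counting limits used 3 reads.

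Deviations from the condition means correlated at 0.48, 0.50 and 0.51 between same-numbered libraries, and at -0.41 to 0.02 between others, so the replicate numbers pair the libraries.

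The members, lists and tests were chosen with earlier results of these data known. The genes named are the 10 members, list genes that passed both thresholds (up to 4 per list), Cd4 and Cd3e, the genes from Kif3a to Acsl6 or within 10 kb of a member, and the 3 genes most like Il4 and Gata3. Any other gene named was picked with its values in view. Some genes of the lists are not reported here by name. Python 3.11.15, numpy 2.4.6, pandas 2.3.3 and matplotlib 3.10.9 were used for other steps.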

Additional observations from a re-analysis of the deposited data

How the results depend on the processing

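Under every alternative 0 members passed between temperatures. With the replicate block the calls among all tested genes were 458 higher and 2679 lower, within 1.5 times of 321 and 1954. The Il10 difference stayed at 0.87 (limma adjusted p = 0.17), and the pathway lists had 2 higher and 16 lower calls in place of 1 and 9. Without a filter, 184 genes were higher and 1121 lower. The median of ratios scaling gave 802 and 1076 (pathway lists, 4 higher), voom 767 and 1122, and the block with the median of ratios 1087 higher. Leaving out libraries or replicate numbers gave 0 to 653 higher and 0 to 3088 lower genes, with 0 calls by limma without replicate 1 or replicate 2 (2410 and 2229 genes at an unadjusted p under 0.05). The list genes were counted only in the fits without 1 library, which gave 0 to 4 higher and 2 to 11 lower.

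Of 105 alternative values of the members' temperature differences, 24 turned in direction and 81 did not. Under the median of ratios, the block with the median of ratios, and voom, Il4 turned to 0.38, 0.38 and 0.36, Gata3 to 0.26, 0.26 and 0.27, and Maf to 0.05, 0.05 and 0.03. Without libraries or replicate numbers, the difference ranged from -0.25 to 0.23 for Il4, -0.93 to 0.35 for Il5, -1.57 to 2.15 for Il13, -1.55 to 1.62 for Il3 and -0.33 to 0.14 for Gata3. It turned for Il5 without non-acclimated replicate 3, for Il13 without replicate 1, without the cold-acclimated library of replicate 1 or 3 and without non-acclimated replicate 2, and for Il3 without replicate 1 or its cold-acclimated library and without non-acclimated replicate 3. The number of members without overlap was 0 to 1.

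Between replicate numbers, the 3 member calls and the 442 gene calls both became 0 without a filter by limma, where 3189 genes had an unadjusted p under 0.05 and the adjusted p of Il3, Il13 and Il5 were 0.13, 0.14 and 0.22. Voom called 720 genes. Leaving out 1 library gave 171 to 3651 genes and 2 to 5 members. The calls were most numerous without the non-acclimated (3651) or the cold-acclimated (2826) library of replicate 3, and 171 to 179 without any of the other 4. The causes were not tested. At 1 to 26 reads, Csf2 and Tbx21 are limited by depth.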
